A study of Mus musculus with 7 samples.

Results

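The RNA levels of 9 genes were followed in mouse tissue: the integrin chains Itga2, Itga3, Itga5, Itga6, Itgb1, Itgb4 and Itgb6, and the laminin-332 chains Lama3 and Lamb3. They were picked by name as the integrins and laminin-332 of keratinocytes, with earlier results of these data known. They are 9 of the 19937 genes on the arrays. Each had 1 probe set naming it alone, so no choice among probe sets was needed. RefSeq places Lamb3 on chromosome 1, Itga6 and Itgb6 on chromosome 2, Itgb1 on 8, Itga3 and Itgb4 on 11, Itga2 on 13, Itga5 on 15 and Lama3 on 18. The study put RNA on 7 Mouse Gene 1.0 ST arrays (Affymetrix). The groups were Iqgap1 knockout at day 6 (2 arrays) and at day 0 (2 arrays), and wild type at day 6 (2 arrays) and at day 0 (1 array), all on a mixed C57BL/6 and 129 strain background. The agent was topical 4OHT, the estrogen receptor ligand 4-hydroxytamoxifen, given for 6 days or 0 days. The labels named no tamoxifen-dependent protein or promoter, no age and no tissue beyond mouse tissue, and they did not say how many mice an array stands for. Whether arrays of a group came from separate mice was not stated, so p-values here measure the spread between arrays.

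Basal keratinocytes sit on a basement membrane to which they are fixed by hemidesmosomes. There the integrin pair of the alpha 6 chain (Itga6) and the beta 4 chain (Itgb4) binds laminin-332, a matrix protein that keratinocytes secrete and to which Lama3 gives the alpha 3 chain and Lamb3 the beta 3 chain. The alpha 2 (Itga2), alpha 3 (Itga3) and alpha 5 (Itga5) chains pair with the beta 1 chain (Itgb1) to bind collagen, laminin and fibronectin, while the beta 6 chain (Itgb6) pairs with the alpha v chain and activates latent TGF-beta. In skin, laminin-332 and several of these integrins are known for their part in wound repair and in squamous tumours.

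Iqgap1, the targeted gene, encodes a scaffold protein that binds kinases of the Ras-ERK cascade. Its log2 value was 8.58 and 8.67 in knockout at day 6 and 10.11 and 10.59 in wild type at day 6. At day 0 knockout had 9.02 and 8.99 and the lone wild-type array 9.94, so every knockout array lay below every wild-type array. The position of its probes relative to the deletion is not given in the sources used here. The basal keratinocyte keratin genes Krt5 and Krt14 stood between 11.71 and 12.89 on every array, in a table that spans 2.37 to 13.38. Xist was at 11.15 on the lone wild-type day 0 array and at 10.30 on 1 wild-type day 6 array (replicate 1), with Y-linked Eif2s3y at 3.72 on both. On the other 5 arrays Xist lay between 3.55 and 4.03 and Eif2s3y between 8.74 and 9.61. The 2 arrays with Xist signal also had the narrowest overall spread of log2 values (SD 2.404 and 2.385). Every comparison that uses wild type at day 0 rests on 1 array, whose error limma takes from the other groups.

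Both laminin chains and the collagen receptor chain Itga2 were higher at day 6 than at day 0 in knockout and in wild type. The laminin receptor chains Itga3, Itga6 and Itgb4 did not pass the test in knockout, and their rise in wild type was measured against 1 day 0 array. Itga5 fell in knockout at day 6 and rose in wild type. At day 6 none of the 9 genes differed between the genotypes past the threshold, an adjusted p of 0.05 after Benjamini-Hochberg correction over all 19937 genes. At day 0 the single wild-type array held the lowest value of all 7 arrays for 9 of the 9 genes, and that array had the lowest value for 17.5% of all genes.

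**Figure D1:**
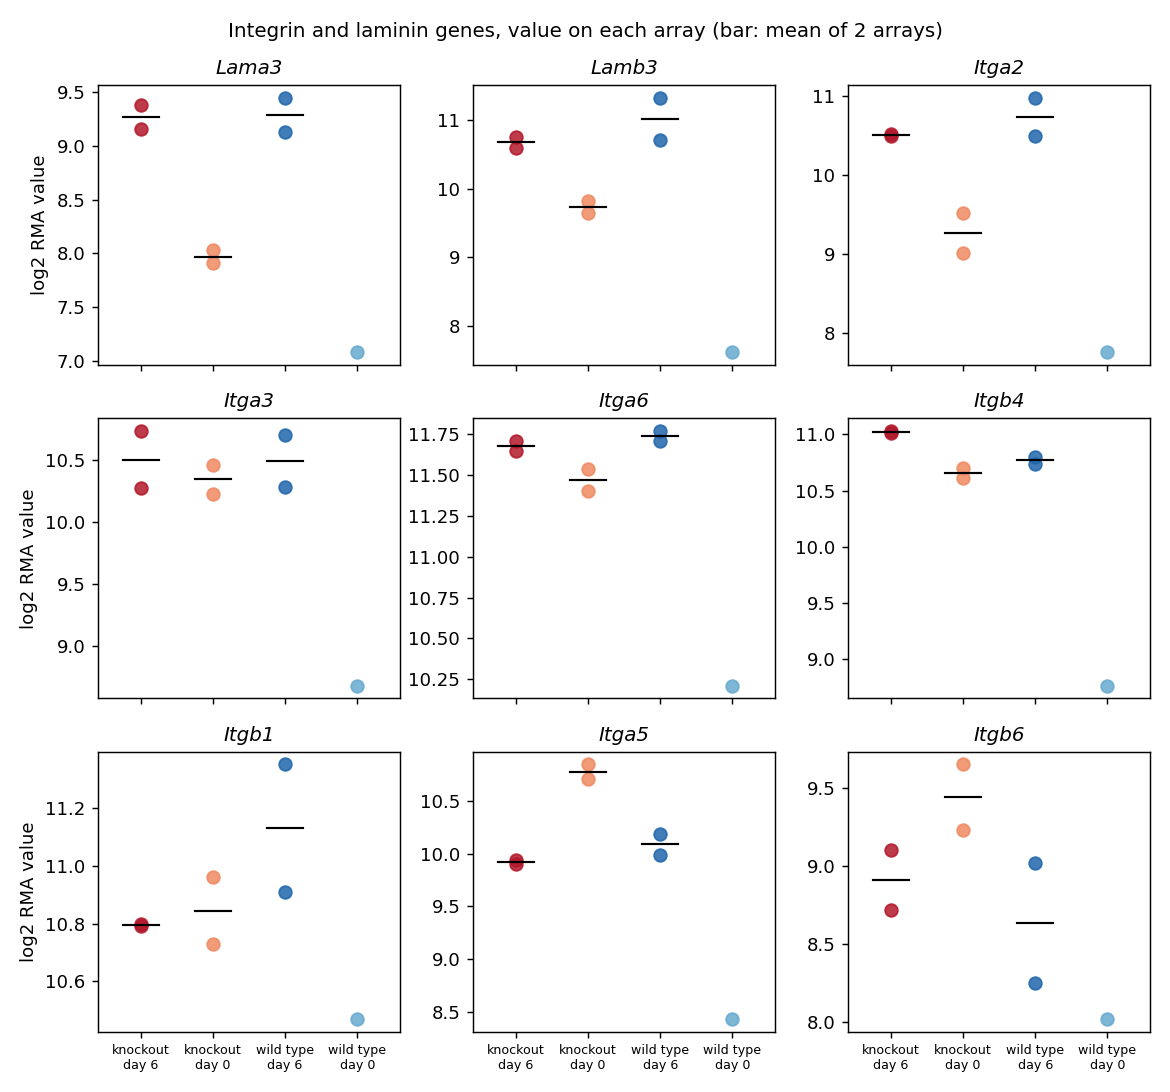
Log2 RMA value (vertical axis) of each gene on each of the 7 arrays, by group, with the mean of groups of 2 arrays as a bar; each panel has its own vertical scale, which does not start at 0. The wild-type day 0 point is the lowest in all 9 panels, and for Lama3, Lamb3, Itga2, Itga6 and Itgb4 the 4 day 6 points lie above the 3 day 0 points.

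In knockout, where both days had 2 arrays and no array had Xist signal, 3 of the 9 genes rose by day 6 and 1 fell. Over all genes 16.3% changed in that comparison, 7.24% upward and 9.07% downward (limma, adjusted p under 0.05). The median log2 difference, day 6 minus day 0, was 0.21 for the 9 genes and 0.10 for all genes. In wild type 7 of the 9 rose and 0 fell, where 7.11% of all genes changed, 3.51% upward and 3.61% downward, and the medians were 1.81 and 0.00. Levels are those of bulk tissue, in which fewer cells of a type and less RNA per cell cannot be told apart.

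Lama3, the laminin alpha 3 chain, had 9.16 and 9.38 in knockout at day 6, against 7.91 and 8.03 in knockout at day 0. In wild type Lama3 had 9.45 and 9.13 at day 6, against 7.08 on the day 0 array. The day 6 arrays of both genotypes lay within 9.13 to 9.45, above all day 0 arrays. The rise in knockout was 1.30 ± 0.18 on the log2 scale (SE), or 2.46-fold, with a limma adjusted p of 0.00463. In wild type it was 2.21 ± 0.22 (SE; adjusted p = 0.00265). The knockout rise passed the threshold with any 1 of the 7 arrays left out, at adjusted p of 0.00463 to 0.0395.

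Lamb3, the laminin beta 3 chain, had 10.60 and 10.76 in knockout at day 6, against 9.64 and 9.82 in knockout at day 0. In wild type Lamb3 had 11.33 and 10.71 at day 6, against 7.61 on the day 0 array. Its wild-type day 0 value lay 2 log2 units under the next lowest array, and it had the widest range of the 9 genes over the 7 arrays, 3.72. The knockout rise was 0.95 ± 0.23 (SE; limma adjusted p = 0.0342), and the wild-type rise was 3.41 ± 0.28 (SE; adjusted p = 0.00114). The knockout call was lost when any 1 of the 4 knockout arrays was left out, at adjusted p of 0.19 and 0.096 without day 0 replicate 1 and 2 and of 0.122 and 0.146 without day 6 replicate 1 and 2. It was also lost when all probe sets of the table were tested (adjusted p = 0.0614).

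Itga2, the alpha chain of the collagen receptor, had the profile nearest to each of the laminin chains among the 9 genes. It had 10.49 and 10.52 in knockout at day 6, against 9.02 and 9.52 in knockout at day 0. In wild type Itga2 had 10.98 and 10.50 at day 6, against 7.76 on the day 0 array. All 4 day 6 values lay above all 3 day 0 values. The knockout rise was 1.24 ± 0.24 (SE), or 2.35-fold (limma adjusted p = 0.0154), and the wild-type rise was 2.99 ± 0.29 (SE; adjusted p = 0.00232). The knockout call was lost without day 0 replicate 1 (adjusted p = 0.0987) and without day 6 replicate 1 or replicate 2 (0.0833 and 0.0706).

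The promoters of Itga2, Lamb3 and Itga5 are shown because Itga2 and Lamb3 rose at day 6 in both genotypes and Itga5 went opposite ways. Each is the RefSeq window from 250 bases before to 50 after a start site in GRCm38.p6, on the strand of the gene, and capitals mark a match, on either strand, of the GC box letters GGGCGG or of the letters GGAATG, the core read by TEAD factors. The Itga2 window is chr13:114932051-114932350, minus strand. The Lamb3 window is chr1:193301993-193302292, plus strand, the downstream one of a pair. The Itga5 window is chr15:103366742-103367041, minus strand.
Itga2: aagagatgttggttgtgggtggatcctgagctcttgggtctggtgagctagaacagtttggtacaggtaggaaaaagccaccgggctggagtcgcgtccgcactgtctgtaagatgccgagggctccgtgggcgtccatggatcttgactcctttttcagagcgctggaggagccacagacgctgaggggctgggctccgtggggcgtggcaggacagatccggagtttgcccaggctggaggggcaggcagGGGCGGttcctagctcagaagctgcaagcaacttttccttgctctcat
Lamb3: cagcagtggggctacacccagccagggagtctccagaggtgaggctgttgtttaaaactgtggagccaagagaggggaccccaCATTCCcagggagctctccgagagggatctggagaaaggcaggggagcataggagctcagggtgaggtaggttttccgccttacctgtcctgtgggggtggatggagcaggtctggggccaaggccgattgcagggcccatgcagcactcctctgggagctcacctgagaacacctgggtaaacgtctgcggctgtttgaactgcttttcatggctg
Itga5: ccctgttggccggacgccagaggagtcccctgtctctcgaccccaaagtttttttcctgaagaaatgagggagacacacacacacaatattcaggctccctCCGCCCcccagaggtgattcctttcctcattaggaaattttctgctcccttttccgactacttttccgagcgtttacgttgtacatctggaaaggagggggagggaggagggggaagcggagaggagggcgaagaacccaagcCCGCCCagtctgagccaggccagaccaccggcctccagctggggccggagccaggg
The GC box stood in 35.7% of the 32851 promoter windows of the table and in 5 of the 9 windows of the 6 genes with an entry used here. It lay 2 bases past the start site in Itga2 and at -149 and -6 in Itga5, and neither Lamb3 window had a match. The AP-1 letters TGANTCA stood in 7.81% of all windows and in 1 of the 9, a second Itga3 window. The letters GGAATG stood in 14.7% of all windows and in 2 of the 9, the Lamb3 window shown, at -167, and that of Itgb1, at -7. The motifs do not overlap in the windows shown.

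Itga3, Itga6 and Itgb4 encode the laminin-binding chains. Itga3 had 10.27 and 10.73 in knockout at day 6, against 10.22 and 10.46 in knockout at day 0, so the knockout groups overlapped. In wild type Itga3 had 10.28 and 10.70 at day 6, against 8.68 at day 0. Apart from that last array, Itga3 lay between 10.22 and 10.73 everywhere. Itga6 had 11.71 and 11.65 in knockout at day 6, against 11.40 and 11.54 in knockout at day 0. In wild type Itga6 had 11.71 and 11.77 at day 6, against 10.21 at day 0. The 6 arrays other than the wild-type day 0 array again held a narrow band, from 11.40 to 11.77.

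Itgb4, the hemidesmosome partner of Itga6, had 11.01 and 11.03 in knockout at day 6, against 10.61 and 10.70 in knockout at day 0. In wild type Itgb4 had 10.74 and 10.80 at day 6, against 8.76 at day 0. The knockout groups did not overlap, but the difference of 0.37 ± 0.15 (SE) did not pass (limma adjusted p = 0.162). For Itga3 and Itga6 the knockout differences were 0.16 with a 95% interval of -0.39 to 0.71, and 0.21 with an interval of -0.15 to 0.58. A modest change within those limits, -0.39 to 0.71 for Itga3 and -0.15 to 0.58 for Itga6, was thus not excluded by these arrays. In wild type all 3 rose, Itga3 by 1.81 ± 0.29, Itga6 by 1.53 ± 0.19 and Itgb4 by 2.01 ± 0.18 on the log2 scale (SE), at limma adjusted p of 0.0138, 0.00546 and 0.00167.

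Itga5, the alpha chain of the fibronectin receptor, moved the other way in knockout. It had 9.90 and 9.94 in knockout at day 6, against 10.71 and 10.85 in knockout at day 0. In wild type Itga5 had 10.19 and 9.99 at day 6, against 8.43 on the day 0 array. All 4 day 6 arrays thus lay between the knockout day 0 arrays and the wild-type day 0 array. The difference in knockout was -0.86 ± 0.16 (SE), 1.82-fold lower at day 6 (limma adjusted p = 0.0132), and that in wild type was 1.66 ± 0.20 (SE; adjusted p = 0.005). With 1 knockout array left out, the knockout call was lost each time, at adjusted p of 0.0727 and 0.095 without day 0 replicate 1 and 2 and of 0.0917 and 0.0622 without day 6 replicate 1 and 2.

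Itgb6 encodes the epithelial chain that binds latent TGF-beta. It had 9.10 and 8.72 in knockout at day 6, against 9.23 and 9.65 in knockout at day 0. In wild type Itgb6 had 9.02 and 8.25 at day 6, against 8.02 at day 0. As for Itga5, both day 6 arrays lay below both day 0 arrays in knockout and above the day 0 array in wild type. Neither difference passed (limma, -0.53 ± 0.30, adjusted p = 0.305, and 0.62 ± 0.37, SE, adjusted p = 0.429). This arrangement was found for 2 of the 9 genes, Itga5 and Itgb6, and for 5.13% of all genes.

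Itgb1, the beta chain shared by many integrin pairs, varied least, over a range of 0.88. It had 10.79 and 10.80 in knockout at day 6, against 10.73 and 10.96 in knockout at day 0. In wild type Itgb1 had 11.35 and 10.91 at day 6, against 10.47 at day 0. The day 0 knockout arrays enclosed the day 6 knockout arrays. The differences were -0.05 (95% interval -0.52 to 0.42) in knockout and 0.66 (0.08 to 1.24) in wild type, and neither passed (limma adjusted p = 0.899 and 0.185).

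**Figure D2:**
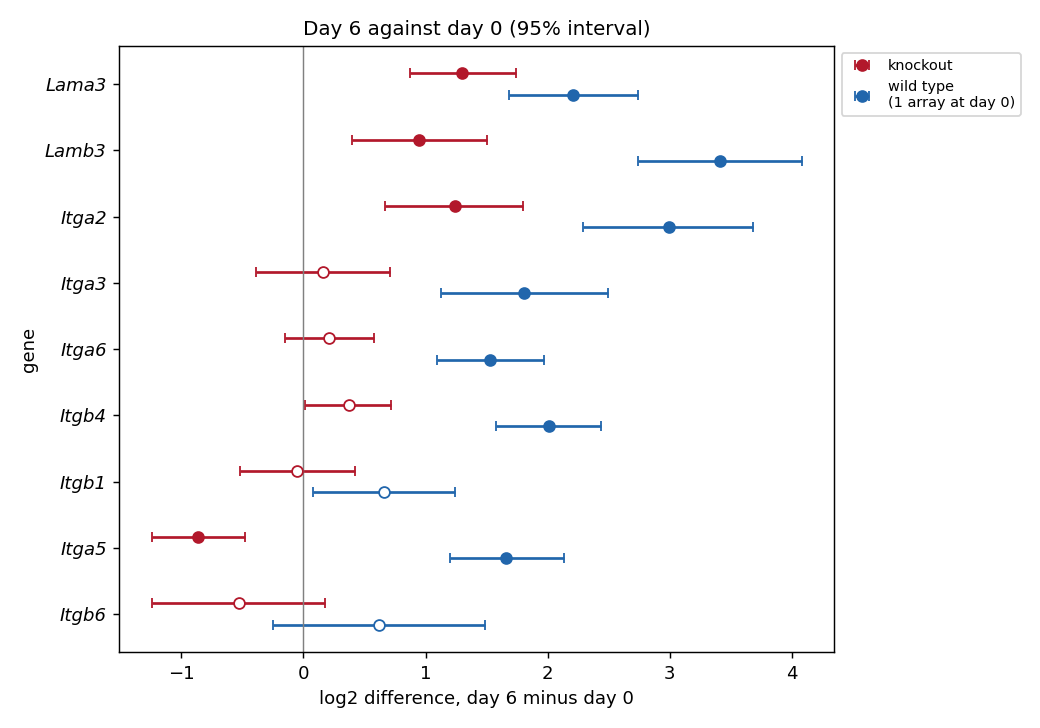
Log2 difference, day 6 minus day 0 (horizontal axis), of each gene in knockout (red, upper point) and wild type (blue, lower point), with 95% intervals from limma; filled points passed the threshold. Lama3, Lamb3 and Itga2 are filled on the right of 0 in both genotypes, and Itga5 is filled at -0.86 in knockout and at 1.66 in wild type.

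The difference between the genotypes in the day change, knockout minus wild type, was below 0 for 9 of the 9 genes and passed for 4 of them, where 3.1% of all genes passed, 1.35% in that direction and 1.76% in the other. The median was -1.64 for the 9 genes and 0.06 for all genes. Itga5 differed by -2.53 ± 0.25, Lamb3 by -2.46 ± 0.37, Itgb4 by -1.64 ± 0.24 and Itga6 by -1.32 ± 0.24 (SE), at limma adjusted p of 0.00558, 0.023, 0.0205 and 0.039. Itga5 passed with any 1 array left out for which the difference could be formed (6 fits, adjusted p 0.00817 to 0.0406). Lamb3, Itgb4 and Itga6 no longer passed without any 1 of the 4 knockout arrays, at adjusted p of 0.0558 to 0.095, 0.0701 to 0.095 and 0.111 to 0.148. Itga6 was also lost with all probe sets tested (adjusted p = 0.0707). Itga2 (adjusted p = 0.0645) came to pass without wild-type day 6 replicate 2 or with a term for the arrays with Xist signal (0.0493 each), with median centring (0.0486) and with a trended, robust variance model (0.0327). Itga3 (adjusted p = 0.0707) came to pass with median centring (0.0386) and with that variance model (0.0336). The wild-type day 0 array enters each of these differences and cannot be left out. Lama3 (-0.91 ± 0.29, SE; adjusted p = 0.17) was not shown to rise by unequal amounts.

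At day 0, 8 of the 9 genes were higher in knockout than in the wild-type array, where 14.4% of all genes differed, 8.53% in that direction and 5.86% in the other, and Itgb1 did not pass (0.38 ± 0.24, SE; limma adjusted p = 0.347). The differences of the 8, knockout minus wild type, lay between 0.89 for Lama3 and 2.35 for Itga5, and their adjusted p between 0.0013 for Itga5 and 0.0469 for Itgb6. The median difference was 1.51 for the 9 genes and -0.09 for all genes, of which 10.19% were higher by more than 1 in knockout. Itga5 was 5.09-fold, Lamb3 4.35-fold and Itgb4 3.71-fold higher in knockout, and these 3 calls held with any 1 array left out (6 fits). Without knockout day 0 replicate 2 the calls of Itga2, Itga3 and Itga6 were lost (adjusted p = 0.0717, 0.0562 and 0.0505). The calls of Lama3 and Itgb6 were lost without any 1 of the 4 knockout arrays (adjusted p 0.0702 to 0.173 for Lama3 and 0.0673 to 0.161 for Itgb6). Lama3 was also lost with all probe sets (adjusted p = 0.0688), median centring (0.0709), quantile normalization (0.078) and the trended, robust variance model (0.0577), and passed in 4 of 14 alternatives. Itgb6 was also lost with all probe sets (adjusted p = 0.0738) and quantile normalization (0.0941), and passed in 7 of 14. With a term for the arrays with Xist signal, 3 of the 8 calls held, those of Itga5, Itgb4 and Lamb3. That term takes its value from the difference between the 2 wild-type day 6 arrays. The share of all genes called in that fit is not given here, so the lost calls cannot be read as particular to these genes. Among the day 0 arrays themselves, genotype and the Xist split cannot be told apart. Xist was high and Y-linked Eif2s3y low on the lone wild-type array, and the reverse held on both arrays of knockout.

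**Figure D3:**
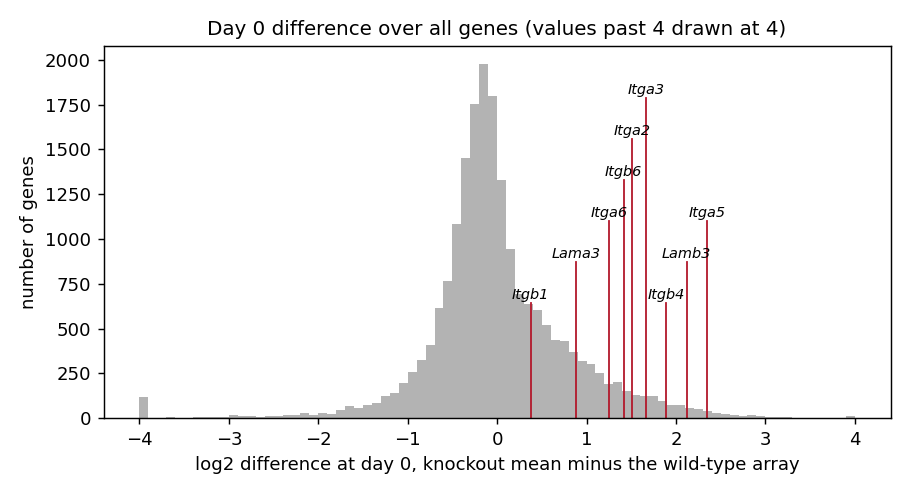
Number of genes (vertical axis) by log2 difference at day 0, the mean of 2 knockout arrays minus the wild-type array (horizontal axis), over all 19937 genes, with the 9 integrin and laminin genes drawn as red lines, whose heights only separate the names; values past 4 in size are drawn at 4. The bulk of genes lies near the median of -0.09, and the 9 genes run from 0.38 (Itgb1) to 2.35 (Itga5).

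At day 6 knockout and wild type had 2 arrays each, and 0 of the 9 genes passed (limma, 0 also at an unadjusted p under 0.05), as did 0.0% of all genes (1182 at an unadjusted p under 0.05). The differences, knockout minus wild type, ran from -0.34 (Lamb3 and Itgb1) to 0.27 (Itgb6), with a median of -0.06 against 0.00 for all genes. The 95% interval was -0.46 to 0.41 for Lama3, -0.89 to 0.21 for Lamb3 and -0.81 to 0.33 for Itga2. For Itga6 it was -0.42 to 0.30, for Itgb4 -0.11 to 0.60 and for Itga5 -0.56 to 0.20. A difference of 2-fold, 1 on the log2 scale, thus lay outside the interval of each of these genes, and of Itga3 (-0.54 to 0.57), Itgb1 (-0.81 to 0.14) and Itgb6 (-0.44 to 0.98). Iqgap1 itself, at -1.73 ± 0.20 (SE), had an adjusted p of 0.503 in this comparison.

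**Figure D4:**
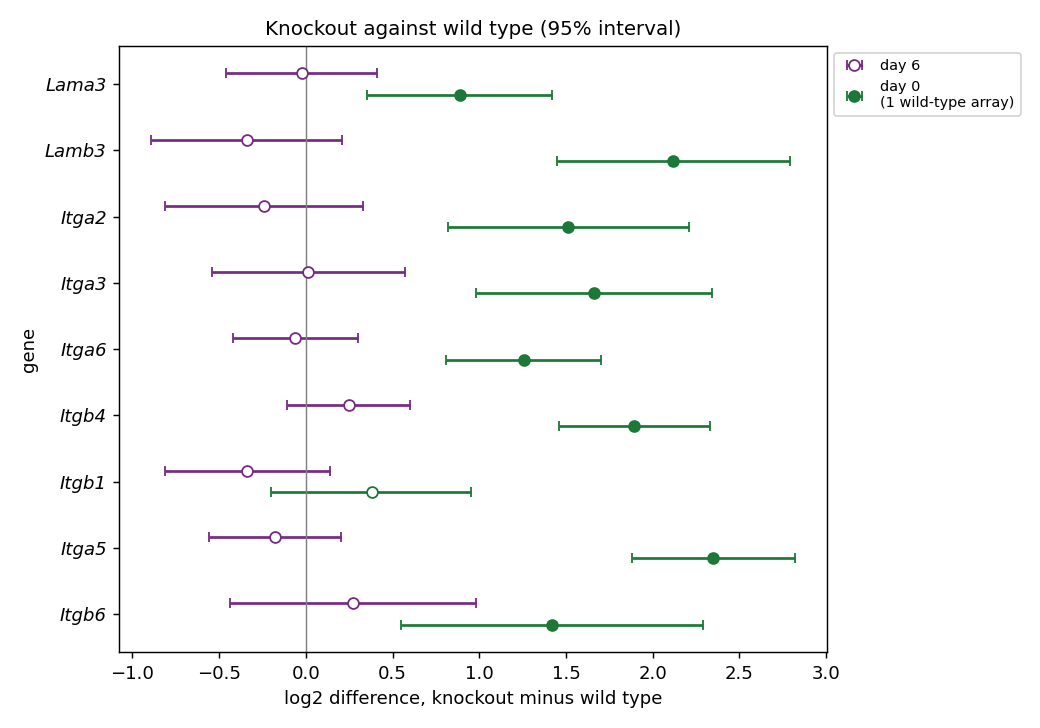
Log2 difference, knockout minus wild type (horizontal axis), of each gene at day 6 (purple, upper point) and at day 0 (green, lower point), with 95% intervals from limma; filled points passed the threshold. No day 6 point is filled and all lie between -0.34 and 0.27, while 8 of 9 day 0 points are filled on the right of 0.

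Over both genotypes, in a fit with a term for genotype, Lama3 and Itga2 rose at day 6 (1.67 ± 0.22 and 1.94 ± 0.37, SE; limma adjusted p = 0.00667 and 0.0227). That was 2 of 9 genes up and 0 down, where 11.5% of all genes changed, 5.85% upward and 5.62% downward. Lamb3, at 1.94 ± 0.49 (SE), had an adjusted p of 0.0507, and it passed in 6 of 17 alternatives. With all arrays kept it passed with median centring (limma adjusted p = 0.0308) and among genes with a mean of 5 or more (0.0357). It also passed with a trended, robust variance model (0.0498) and from 4 group means (0.000658). Leaving out the lone wild-type day 0 array made it pass too (0.95, adjusted p = 0.0342). Without that array Itga5 passed too, as a fall (-0.86, adjusted p = 0.0132), since the day difference then comes from knockout alone. Itga2 no longer passed without knockout day 0 replicate 1, knockout day 6 replicate 2 or wild-type day 6 replicate 2. It was also lost with a term for the arrays with Xist signal (limma adjusted p = 0.0585). In 5 of the 9 genes (Itga2, Itga6, Itgb4, Lama3, Lamb3) all day 6 arrays lay above all day 0 arrays, as in 11.9% of all genes, and for 0 of the 9 did they all lie below, as in 9.66% of all genes (21.5% either way). Between genotypes over both days 0 of 9 passed in limma (1, Itgb4, at an unadjusted p under 0.05), as did 0.0% of all genes (3729 at an unadjusted p under 0.05).

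Other genes of the same structures were counted list by list. Of 7 measured hemidesmosome partners, 2 rose over both genotypes and 0 fell, where 5.85% and 5.62% of all genes did (median 0.29, against 0.06 for all genes). These were Col7a1, the collagen of anchoring fibrils (0.84 ± 0.13, SE; limma adjusted p = 0.0118), and Krt14 (0.72 ± 0.15, SE; adjusted p = 0.0276). Dst, the plakin that ties keratin to the hemidesmosome, had 7.87 and 8.12 in knockout at day 6, against 10.05 and 9.68 in knockout at day 0. In wild type Dst had 6.59 and 7.32 at day 6, against 7.31 at day 0. It fell in knockout (-1.87 ± 0.27, SE; limma adjusted p = 0.00553), opposite to Lama3 and Lamb3. In knockout alone 1 of the 7 rose and 2 fell, where 7.24% and 9.07% of all genes did, and in wild type 2 rose and 0 fell, where 3.51% and 3.61% of all genes did.

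Of 8 other laminin chains, Lama1 rose (0.73 ± 0.12, SE, limma adjusted p = 0.0128) and 0 fell over both genotypes, with a median of -0.34. Among all genes 5.85% rose and 5.62% fell in that comparison. Lama1 was a weak signal, between 4.97 and 5.90 on the 7 arrays, whose medians over all probe sets were 5.61 to 5.79. In knockout alone 1 rose and 3 fell (7.24% and 9.07% of all genes), among them Lamb2 (-1.94 ± 0.27, SE; limma adjusted p = 0.00436), a chain of vessel, nerve and muscle basement membranes. Of 13 other basement membrane genes, 2 fell and 0 rose over both genotypes (median -0.44). The 2 were Npnt, a ligand of the alpha 8 integrin (-1.61 ± 0.28, SE, limma adjusted p = 0.0169), and Frem2 (-0.88 ± 0.17, SE, adjusted p = 0.0219). Frem2, an anchoring protein of the epidermal basement membrane, was also weak, between 4.76 and 6.18 on the 7 arrays.

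Of 8 further integrin chains of epithelium and stroma, Itga8 fell over both genotypes (-0.95 ± 0.22, SE, limma adjusted p = 0.0411) and 0 rose (median -0.25). Among all genes 5.62% fell and 5.85% rose in that comparison. Itga8 was a weak signal, between 5.26 and 6.96 on the 7 arrays. Itgav, the partner of Itgb6, did not pass (0.57 ± 0.15, SE; adjusted p = 0.0577). Of 10 leukocyte and platelet chains, 0 rose and 0 fell in limma (0 also at an unadjusted p under 0.05), with a median of -0.27. Of 5 measured ligands, Tgfb1, which Itgb6 activates in its latent form, rose by 0.99 ± 0.20 (SE; limma adjusted p = 0.0277), and Vtn, which encodes vitronectin, fell (-1.33 ± 0.28, SE; adjusted p = 0.0295).

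Of 21 genes of integrin activation and focal adhesions, 4 rose and 1 fell over both genotypes, where 5.85% and 5.62% of all genes did (median 0.05). Fermt1, the keratinocyte kindlin that activates beta 1 integrins, had 9.40 and 9.02 in knockout at day 6, against 7.11 and 7.50 in knockout at day 0. In wild type Fermt1 had 9.65 and 9.34 at day 6, against 8.01 at day 0. Its rise was 1.74 ± 0.19 (SE; limma adjusted p = 0.00357), and its wild-type day 0 array was not the lowest. Actn1, which crosslinks actin, and the kinase gene Src rose by 1.16 ± 0.14 and 1.28 ± 0.19 (SE; limma adjusted p = 0.00565 and 0.0101), while Tln2, a talin of muscle and nerve, fell (-1.34 ± 0.25, SE; adjusted p = 0.0208). In knockout alone 3 of the 21 rose and 5 fell (7.24% and 9.07% of all genes), and in wild type 5 rose and 0 fell (3.51% and 3.61% of all genes). At day 0, 11 of the 21 were higher in knockout than in the wild-type array and 0 were lower, where 8.53% of all genes were higher and 5.86% lower.

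**Figure D5:**
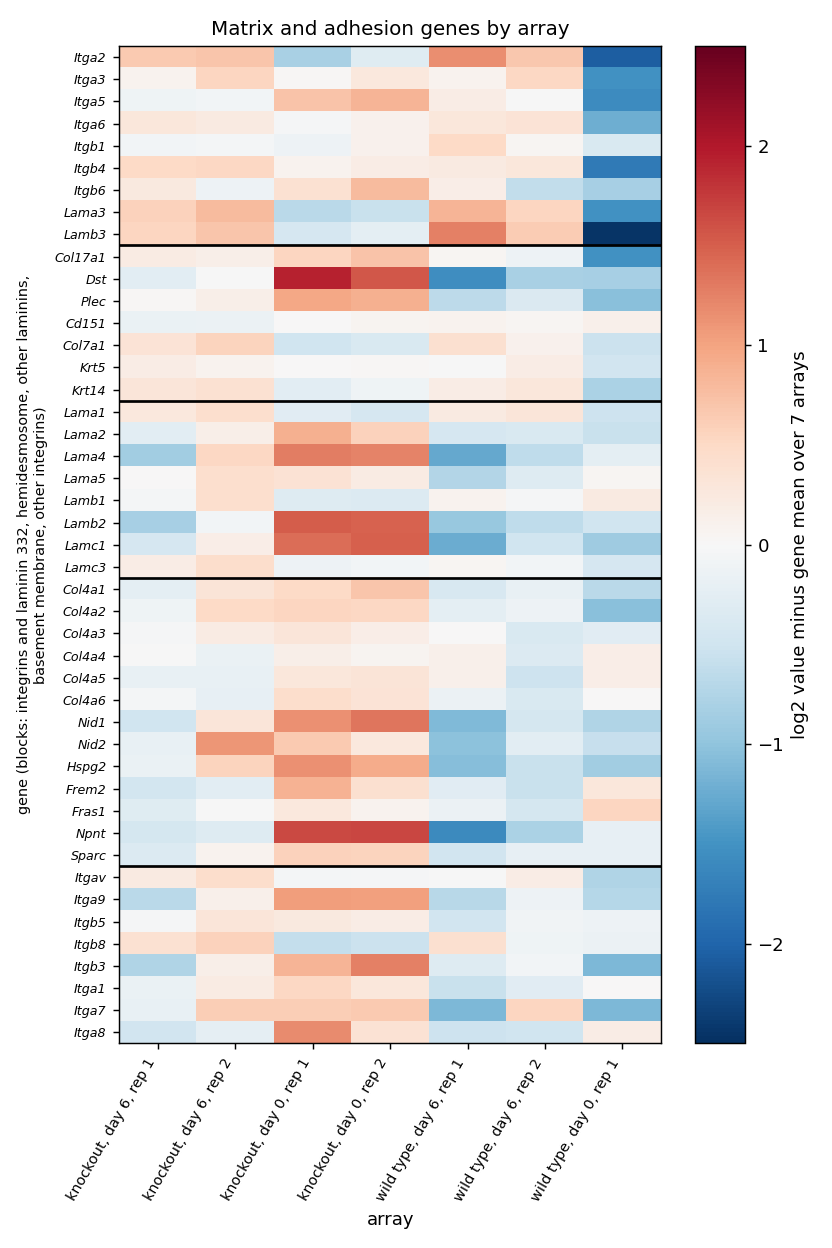
Log2 value minus the mean of the gene over the 7 arrays (colour), by gene (rows, in blocks) and array (columns), for the 9 integrin and laminin genes and 4 related lists. The top block is blue throughout in the wild-type day 0 column, while genes such as Dst, Npnt and Lamb2 are red in the 2 knockout day 0 columns.

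Genes that mark other cell types also differed by day and by array. Among all genes 5.85% rose and 5.62% fell over both genotypes, the comparison counted below. Over both genotypes 0 of 9 skeletal muscle markers rose and 7 fell, 0 of 8 adipocyte markers rose and 6 fell, and 0 of 9 fibroblast markers rose and 4 fell (limma medians -1.60, -3.48 and -1.50). The mean log2 value of the muscle markers was 9.41 and 9.85 in knockout at day 6 against 12.36 and 12.10 in knockout at day 0, and 8.85 and 9.65 in wild type at day 6 against 11.16 at day 0. The adipocyte mean was 6.87 and 7.78 in knockout at day 6 against 10.70 and 10.37 in knockout at day 0, and 7.63 and 7.34 in wild type at day 6 against 9.93 at day 0. In both lists every day 6 array lay below every day 0 array. Of 9 basal keratinocyte markers 3 rose (Sox15, Cdh3, Krt14) and 2 fell (Krt15, Ccnd2), with a median of 0.32. Krt15, a keratin of resting basal and hair follicle cells, had the largest difference among them (-3.47 ± 0.30, SE; limma adjusted p = 0.00191). Of 7 measured suprabasal markers 0 rose and 0 fell in limma (1 at an unadjusted p under 0.05). Of 9 endothelial markers Emcn rose and 0 fell, and of 10 leukocyte markers S100a8, a neutrophil protein gene that stressed keratinocytes also express, rose while Cd207 and Cd3g fell.

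Beside the knockout day 0 arrays, the wild-type day 0 array was lower in the mean of every marker list and every other gene list counted here. It was not low over all probe sets, where its median was 5.79, against 5.67 and 5.63 on the knockout day 0 arrays. It held the lowest value for 17.5% of all genes and the highest for 20.31%. Outside the 9 genes, the list medians of the day 0 difference, knockout minus wild type, ran from 0.10 (leukocyte markers) to 1.27 (endothelial markers). The endothelial mean was 8.79 and 8.76 in knockout at day 0, against 7.56 on the wild-type array, and the fibroblast mean was 11.23 and 11.25 against 10.20. The day 6 arrays had fibroblast means of 9.33 and 10.10 in knockout and 8.85 and 9.63 in wild type, below that array. The basal keratinocyte mean was 10.50 and 10.73 in knockout at day 0, against 9.84 on the wild-type array, and the suprabasal mean was 11.34 and 11.50 against 10.90. Of the basal markers, Dst (2.55) and Col17a1 (2.14), which are also hemidesmosome partners, had the largest day 0 differences, knockout minus wild type. The other 7 basal markers ran from -0.67 (Cdh3) to 0.76 (Sox15), and the median of the 9 was 0.49. The mean of the 9 integrin and laminin genes was 9.94 and 10.17 in knockout at day 0 against 8.56 in that array, and 10.33 and 10.39 in knockout at day 6 against 10.56 and 10.31 in wild type. The part of these shifts in the results of the 9 genes was not tested.

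Some genes had profiles close to those of the 9. For each of the 8 genes with a range of at least 1 log2 unit, likeness was measured as the root mean square difference of values centred on the gene mean, over the 7 arrays. The nearest gene to Itga2 was Plau, the plasminogen activator urokinase, at 0.19, with 9.78 and 10.08 in knockout at day 6 against 8.31 and 9.30 in knockout at day 0. In wild type Plau had 10.47 and 10.33 at day 6, against 7.29 at day 0. The nearest to Itga5 was Col17a1, the transmembrane collagen of hemidesmosomes, at 0.18. It had 10.90 and 10.85 in knockout at day 6, against 11.23 and 11.41 in knockout at day 0, and 10.74 and 10.57 in wild type at day 6, against 9.19 at day 0.

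The nearest to Lama3 was Ndufa4l2 (0.18), to Lamb3 Lce1i (0.31), to Itga3 Trim8 (0.10), to Itga6 Msn (0.10), to Itgb4 Cdc14b (0.16) and to Itgb6 Tcf7l1 (0.16). Among the 9 genes themselves, Itga2 and Lamb3 were nearest to one another (0.22), as were Itga3 and Itgb4 (0.21) and, at a wider distance, Itga5 and Itgb6 (0.40). All these profiles share the 7 arrays and the low wild-type day 0 value, so the distances are descriptions.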

How the data were processed

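The authors deposited 1 log2 value per probe set and array; RMA and R 2.11.1 are named per the submitters' processing notes, and the values' span of 2.37 to 13.38 fits a log2 scale. RMA sets the arrays' distributions alike and compresses low values. Array batches, other RMA settings and a genome build are not given in the sources used here. Of 34760 probe sets, 21640 named 1 gene, and the one with the highest mean stood for each of 19937 genes, 19855 of them matched to RefSeq (GRCm38.p6). Tests used lmFit and eBayes of limma 3.58.1 (R 4.3.3), two-sided; p-values were adjusted over the 19937 genes by Benjamini-Hochberg and called under 0.05. An additive model of genotype and day gave the comparisons over both, and 4 group means gave the other 5. The number of arrays limits precision. Alternatives covered scaling, filters, probe sets, the variance model, the Xist split, a replicate block and left-out arrays. The procedure was tested on simulated data. All simulated arrays of a gene had the same spread, so that test cannot check the spread assumed for the lone wild-type day 0 array.

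The 9 members and all gene lists were chosen with earlier results of these data known. Named besides the 9 and Iqgap1 are up to 4 genes of each list with the smallest p for the day change over both genotypes, and the nearest profile of each member; Xist and Eif2s3y served as array checks.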

Additional observations from a re-analysis of the deposited data

Results flagged for a closer look

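The day change differed between the genotypes, by a limma test of that difference, for Itga5 (-2.53, knockout minus wild type on the log2 scale), Lamb3 (-2.46), Itgb4 (-1.64) and Itga6 (-1.32). In Itga5 the 2 genotypes changed in opposite directions, and in Lamb3, Itgb4 and Itga6 both differences lay above 0 and that of wild type was the larger. At day 6 these 4 genes lay within 0.34 log2 units between the genotypes, and at day 0 the knockout arrays exceeded the wild-type array by 1.26 to 2.35. The single wild-type day 0 array enters all 4 values, and its part in them was not tested. That array also had Xist signal and lay below both knockout day 0 arrays in the mean of every gene list counted here. Its median over all probe sets, 5.79, was above theirs.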

How the results depend on the processing

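The number of the 9 genes past the threshold moved as follows. For the day change over both genotypes it was 2, and became 1 with a term for arrays with Xist signal, 4 without those arrays and 6 from 4 group means; for genotype over both days it was 0 and became 5 from 4 group means; for genotype at day 0 it was 8 and became 3 with the Xist term. With 1 array left out it ranged from 1 to 4 over both genotypes, from 1 to 4 in knockout (4 with all arrays), from 3 to 8 for genotype at day 0 and from 1 to 5 for the difference in the day change (4 with all arrays); it stayed at 7 in wild type and 0 at day 6. A group left with 1 array is assumed to vary like the others. The number of all genes called also moved with the array left out, so a change in these counts cannot be read as particular to the 9 genes. The share of all genes called with the Xist term, without the Xist arrays and from 4 group means is not given here. Fits without the wild-type day 0 array or without both Xist arrays could not give the comparisons that need it. With replicate number as a replicate block the counts were 2 for day and 0 for genotype over both, 4 and 7 for the day change in knockout and wild type, 0 and 7 for genotype at day 6 and day 0, and 4 for the difference in the day change; the numbers share deviations weakly (correlations 0.086, 0.037 and 0.227), so they do not pair the arrays. Under the block Itga6 no longer passed for the difference in the day change (-1.29, adjusted p = 0.0631) and Itga3 came to pass (-1.46, adjusted p = 0.0468), while Lama3 no longer passed for genotype at day 0 (adjusted p = 0.0729). Over all genes, calls in knockout were 3251, and 1381 to 4027 with 1 array left out; calls for genotype were 0 over both days and 0 at day 6, and up to 836 and up to 43 with 1 array left out. Of 819 values of the 9 genes under alternatives, over the 6 comparisons other than genotype over both days, 725 kept direction and side of the threshold, 53 lost the call, 16 gained one and 25 changed sign. For the day change over both genotypes, Itga5 (0.15) became -0.86 without the Xist arrays and ranged from -0.86 (without wild-type day 0 replicate 1) to 0.43 with 1 array left out, also turning to -0.055 without wild-type day 6 replicate 1. Itgb1 (0.24) became -0.049 without the Xist arrays and ranged from -0.049 (without wild-type day 0 replicate 1) to 0.36. Itgb6 (-0.07) became 0.022 with median centring and 0.043 from 4 group means, and ranged from -0.53 to 0.15 (without knockout day 0 replicate 2). In knockout, Itga3 (0.16) ranged from -0.073 (without day 6 replicate 2) to 0.39, and Itgb1 (-0.05) became 0.057 with median centring and ranged from -0.16 to 0.065 (without day 0 replicate 2). For genotype at day 6, the Xist term and the fit without the Xist arrays both gave 0.00061 for Itga2 (-0.24), -0.20 for Itga3 (0.01) and 0.14 for Lama3 (-0.02), and median centring gave -0.058 for Itga3. With 1 array left out, Itga2 ranged from -0.48 to 0.00061, Itga3 from -0.22 to 0.25, Itgb6 (0.27) from -0.12 to 0.66 and Lama3 from -0.18 to 0.14. For the day change over both genotypes, 32 other listed genes that were called gave 479 values that kept the call and 65 that lost it. The causes were not tested.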
